A study of Mus musculus with 4 samples.

Results

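The secreted antagonists of Wnt signaling described here are encoded by *Sfrp1*, *Sfrp2*, *Sfrp4*, *Sfrp5*, *Frzb*, *Dkk1*, *Dkk2*, *Dkk3*, *Wif1* and *Sost*. These 10 genes were taken by gene symbol from the 45802 symbols of an RNA sequencing table of mouse periosteal cells. All 10 symbols were in the table. A value in all 4 libraries was present for 7 of them, *Sost* had a value in 1 library, and *Sfrp5* and *Dkk1* had none.

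The cells came from hindlimb bones of male Pdgfrα-mT/mG mice. These mice had been given 5 daily doses of tamoxifen (150 mg/kg) at 2 months of age. They were used 14 days after the last dose. The labels also give an age of 9 to 10 weeks, which is less than these times add up to if it is the age at use. In these animals the *Pdgfra* promoter drives an inducible Cre, so that cells active for it at the time of tamoxifen switch from membrane tdTomato to membrane GFP. Cells from the later of 6 collagenase digestions were grown for 1 passage with 15% serum and 10 ng/mL bFGF, and were then sorted as CD31-CD45-Ter119- cells that carried GFP (PDGFRα reporter+) or tdTomato (PDGFRα reporter-). The 2 populations thus shared genotype, tamoxifen and culture, and were separated by the reporter. The labels give pools of 3 to 6 animals for each population, whereas the study's methods give a larger pool, and 2 libraries of each were sequenced. The reporter records promoter activity before culture and not *Pdgfra* at harvest, and the log2 value of *Pdgfra* itself was 7.78 and 7.62 in reporter+ cells and 7.87 and 7.44 in reporter- cells. The table heads the libraries of each population 2# and 3#, and these numbers are used as names here. What a number stands for is not stated in the labels or the methods. Over the 14415 genes with 4 values, libraries with the same number resembled each other more (correlation 0.984 and 0.982) than libraries of the same population (0.952 and 0.957), so each difference between populations is also given within 2# and within 3#. Nothing in the labels says that the libraries of a population came from separate cultures, so p-values measure only the spread between these libraries.

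Wnt proteins signal through Frizzled receptors together with the co-receptors LRP5 and LRP6, which stabilizes β-catenin and, in bone, favors osteoblast formation. The antagonists act at 2 places outside the cell. The secreted frizzled-related proteins SFRP1, SFRP2, SFRP4, SFRP5 and FRZB carry a cysteine-rich domain like that of the receptors and bind the Wnt ligand itself, as does WIF1. DKK1, DKK2 and sclerostin, the product of *Sost*, bind LRP5 and LRP6 instead. DKK3 is a divergent member of the Dickkopf family whose link to Wnt signaling is less settled. Sclerostin is made mainly by osteocytes, the cells embedded in mineralized bone.

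In these cells 5 of the 7 antagonists with 4 values differed more between the library numbers than between the populations, a share close to the 75.7% of all genes tested for which this was so. *Sfrp2*, *Frzb* and *Dkk2* had mean differences of 2.91, 2.45 and 3.01 on the log2 scale between libraries 3# and 2#, whereas reporter+ and reporter- cells differed by 0.60, -0.45 and -1.28. *Sfrp4* and *Wif1* were the 2 of 7 members for which both reporter+ libraries lay above both reporter- libraries, which was so for 7.59% of all genes tested. No member passed limma's test between the populations without a block, and 0% of all genes did. With the library number as a block, 29 genes (0.201%) passed at an adjusted p under 0.05, and no member was among them.

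The promoters of *Sfrp2*, *Frzb* and *Dkk2* are shown because these members had the largest differences between library numbers, all in the same direction. That of *Dkk1* is shown because this gene, itself a known target of β-catenin, had no value in any library. Each runs from 250 bases before to 50 bases after the RefSeq start on GRCm38.p6, written 5′ to 3′ on the strand of the gene. Capitals mark CTTTGA and likewise CTTTGT, which are cores of the T-cell factor motif through which β-catenin acts, and the TATA box letters TATAAA. All were searched on both strands, and a match on the opposite strand is in capitals as its reverse complement. *Sfrp2* is at chr3:83766071-83766370 (+), *Frzb* at chr2:80447347-80447646 (-), *Dkk2* at chr3:132085042-132085341 (+) and *Dkk1* at chr19:30549447-30549746 (-).
Sfrp2: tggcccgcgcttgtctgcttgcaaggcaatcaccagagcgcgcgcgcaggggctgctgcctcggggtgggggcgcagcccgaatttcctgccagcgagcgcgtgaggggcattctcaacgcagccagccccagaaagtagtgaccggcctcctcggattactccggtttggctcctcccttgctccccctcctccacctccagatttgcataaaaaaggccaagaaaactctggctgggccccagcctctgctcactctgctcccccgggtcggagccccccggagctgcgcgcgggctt
Frzb: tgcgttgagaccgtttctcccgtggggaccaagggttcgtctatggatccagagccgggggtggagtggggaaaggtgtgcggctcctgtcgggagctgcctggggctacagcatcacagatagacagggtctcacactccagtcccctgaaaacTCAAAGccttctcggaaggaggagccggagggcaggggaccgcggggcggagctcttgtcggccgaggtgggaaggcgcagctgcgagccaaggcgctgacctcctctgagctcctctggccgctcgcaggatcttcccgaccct
Dkk2: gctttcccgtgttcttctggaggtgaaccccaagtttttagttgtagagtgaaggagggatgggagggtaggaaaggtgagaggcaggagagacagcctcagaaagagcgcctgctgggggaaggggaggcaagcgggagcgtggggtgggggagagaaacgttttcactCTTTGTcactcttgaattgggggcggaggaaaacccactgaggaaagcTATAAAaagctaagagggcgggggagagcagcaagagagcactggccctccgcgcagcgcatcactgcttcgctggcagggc
Dkk1: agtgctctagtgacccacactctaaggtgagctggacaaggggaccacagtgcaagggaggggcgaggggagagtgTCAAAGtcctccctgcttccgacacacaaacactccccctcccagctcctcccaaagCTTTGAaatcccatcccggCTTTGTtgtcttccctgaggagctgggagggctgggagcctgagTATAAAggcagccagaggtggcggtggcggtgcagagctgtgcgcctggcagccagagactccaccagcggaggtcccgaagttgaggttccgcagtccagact

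CTTTGA or CTTTGT was found in 31.2% and TATAAA in 13.6% of all 32851 promoters of this length in the same table. *Sfrp2* held none of these letters in either orientation. *Frzb* held CTTTGA once on the opposite strand, with its first base 95 bases before the start. *Dkk2* held CTTTGT 80 and TATAAA 32 bases before the start. *Dkk1* held CTTTGA at 117 bases before the start and, on the opposite strand, at 174 bases. It also held CTTTGT at 98 bases and TATAAA at 54 bases before the start. The GENCODE positions used below start *Frzb* and *Dkk1* farther upstream, at 80447625 and 30549665, inside these windows. The *Frzb* match and the *Dkk1* matches at 117, 98 and 54 bases thus lie within the gene as GENCODE gives it. For *Sfrp2* and *Dkk2* the RefSeq and GENCODE starts coincide. The *Sfrp2* and *Frzb* windows had 22 and 20 CpG dinucleotides, those of *Dkk2* and *Dkk1* 11 and 9, and the median over all promoters was 7. No searched motif was thus shared by the 3 members with the largest differences between library numbers.

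The values are log2 expression after quantile normalization, and they ran from -10.07 to 11.73 in the table. The linear unit and any scaling by gene length are not stated, so the place of a gene was taken as its percentile among genes with a value, with and without dividing by exonic length. *Sfrp1*, *Sfrp4* and *Dkk3* stood high in every library on either scale. *Sfrp1* was at percentiles 95.6 to 98.9 as deposited and 93.2 to 97.9 per length, *Sfrp4* at 97.3 to 98.7 and 95.8 to 97.7, and *Dkk3* at 96.6 to 98.9 and 95.7 to 98.4. *Wif1* stood low, at 20.8 to 25.8 as deposited and 23.5 to 30.3 per length. *Sfrp2*, *Frzb* and *Dkk2* had no fixed place, since their percentiles as deposited spanned 33.7 to 81.8, 26.0 to 61.4 and 28.0 to 80.9.

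**Figure D1:**
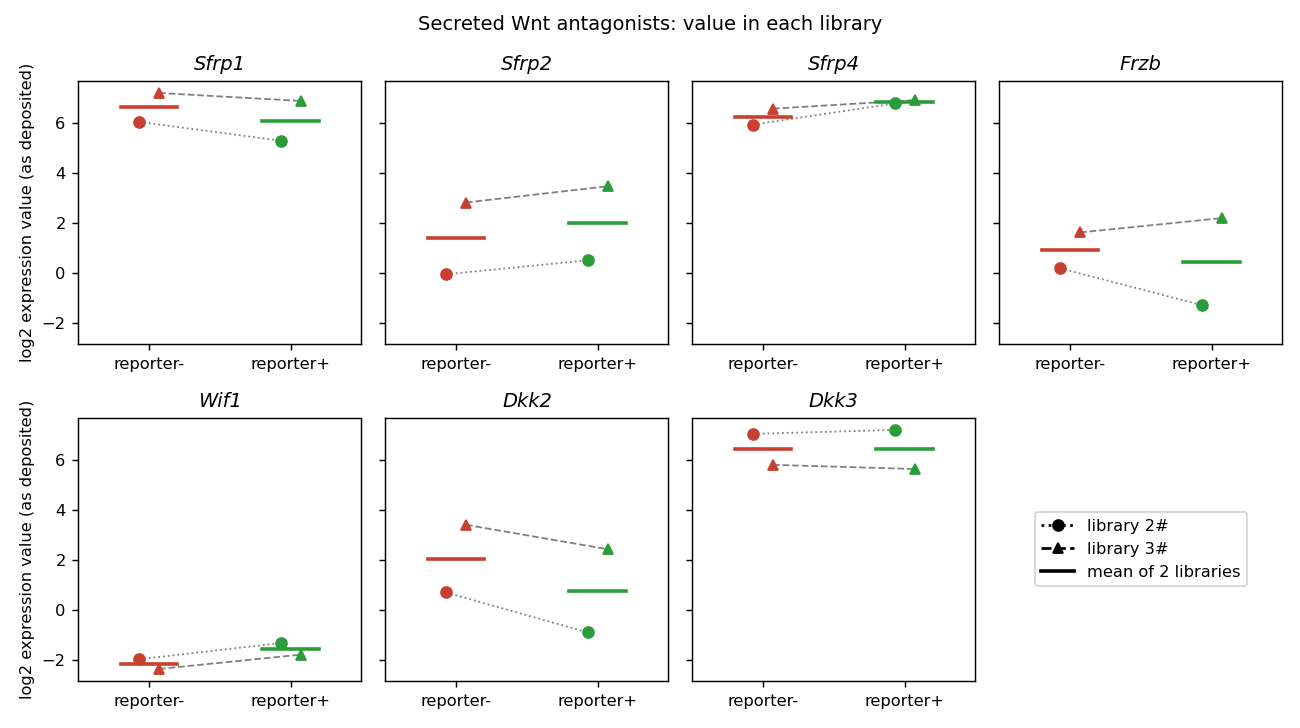
Deposited log2 expression value (y axis) of the 7 members with 4 values in PDGFRα reporter- (red) and reporter+ (green) libraries; circles are libraries 2#, triangles libraries 3#, short lines the mean of 2 libraries, and dotted or dashed lines join libraries with the same number. For *Sfrp2*, *Frzb*, *Dkk2* and *Sfrp1* both triangles lie above both circles, and for *Dkk3* both lie below.

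The comparison of reporter+ with reporter- cells asks how the cells marked by *Pdgfra* promoter activity differ from their neighbors, here in these inhibitors. *Sfrp4* (chromosome 13, 19623104 to 19632994) had log2 values of 6.78 and 6.91 in reporter+ libraries 2# and 3# and of 5.93 and 6.57 in reporter- libraries. Both reporter+ libraries were above both reporter- libraries, with means of 6.84 ± 0.09 and 6.25 ± 0.45 (SD, n = 2). The log2 fold change was 0.59 (SE 0.27, 95% interval -0.12 to 1.30, adjusted p = 1 with limma), or 1.51-fold higher in reporter+ cells. The difference was 0.84 within 2# and 0.34 within 3#.

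*Wif1* (chromosome 10, 121033960 to 121100650) had log2 values of -1.32 and -1.78 in reporter+ and of -1.97 and -2.35 in reporter- libraries. Here too the populations were separate, with means of -1.55 ± 0.33 and -2.16 ± 0.27 (SD, n = 2). The log2 fold change was 0.61 (SE 0.45, 95% interval -0.60 to 1.82, adjusted p = 1 with limma), and the differences within 2# and 3# were 0.65 and 0.57. With a pseudocount of 1 added on the linear scale the log2 fold change was 0.13, and a filter at a mean log2 value of 0 removed the gene. *Wif1* and *Sfrp4* were the 2 of 7 members with both reporter+ libraries above both reporter- libraries, compared with 7.59% of all genes tested. For none of the 7 did both reporter+ libraries lie below both reporter- libraries, compared with 8.10% of all genes.

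*Sfrp2* (chromosome 3, 83766321 to 83774316) had values of 0.52 and 3.47 in reporter+ and of -0.04 and 2.82 in reporter- libraries 2# and 3#. The populations overlapped widely, and the low libraries were those numbered 2# in each. Means were 2.00 ± 2.09 and 1.39 ± 2.02 (SD, n = 2), which gave a log2 fold change of 0.60 (SE 1.39, 95% interval -3.09 to 4.30). With the library number as a block its SE was 0.16 (adjusted p = 0.308 with limma). Within the numbers the difference was nearly the same, 0.56 in 2# and 0.65 in 3#, with reporter+ cells higher in each. The 464 bases at the 3′ end of *Sfrp2* overlap the antisense gene *Gm26771*, and since it is not stated whether counting used the strand, their reads cannot be told apart.

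*Dkk2* (chromosome 3, 132085292 to 132180304), which can inhibit or weakly activate the pathway depending on its partners, had values of -0.90 and 2.43 in reporter+ and of 0.70 and 3.40 in reporter- libraries. It was lower in reporter+ cells within each number, with differences of -1.59 in 2# and -0.97 in 3#, although reporter+ library 3# was above reporter- library 2#. Its log2 fold change of -1.28 (SE 1.44, 95% interval -5.13 to 2.56, adjusted p = 1) was larger in size than that of any other member, corresponding to 2.43-fold. The SE was 0.20 with the library number as a block (adjusted p = 0.0585 with limma).

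*Sfrp1* (chromosome 8, 23411502 to 23449632) was also lower in reporter+ cells within each number, with differences of -0.75 and -0.32. Its values were 5.29 and 6.88 in reporter+ and 6.04 and 7.20 in reporter- libraries, with a log2 fold change of -0.53 (SE 0.67, 95% interval -2.32 to 1.26). The order of the 4 libraries was the same as for *Dkk2*, with reporter+ 2# lowest and reporter- 3# highest.

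*Frzb* (chromosome 2, 80411970 to 80447625), also known as Sfrp3 and first purified from cartilage, had values of -1.27 and 2.20 in reporter+ and of 0.20 and 1.63 in reporter- libraries. The reporter+ libraries thus held both the lowest and the highest value. The difference between populations was -1.47 within 2# and 0.57 within 3#, and the log2 fold change was -0.45 (SE 1.28, 95% interval -3.85 to 2.95).

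*Dkk3* (chromosome 7, 112116017 to 112159057) had values of 7.19 and 5.63 in reporter+ and of 7.03 and 5.79 in reporter- libraries. The populations were closest for this member, with means of 6.41 ± 1.10 and 6.41 ± 0.87 (SD, n = 2) and a log2 fold change of -0.01 (SE 0.68, 95% interval -1.82 to 1.81). The small differences within the numbers had opposite signs, 0.16 in 2# and -0.17 in 3#.

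**Figure D2:**
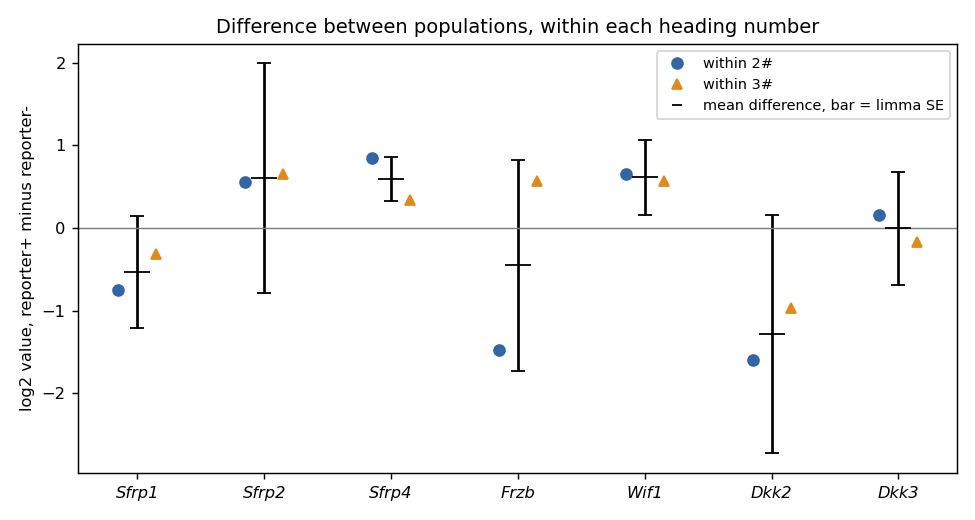
Difference in log2 value between reporter+ and reporter- cells (y axis) for each member, within libraries 2# (blue circles) and 3# (orange triangles), with the mean difference and its limma SE (black). *Sfrp2*, *Sfrp4* and *Wif1* are above 0 and *Sfrp1* and *Dkk2* below 0 within each number, while *Frzb* and *Dkk3* change side.

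Counted by direction, 3 of 7 members (*Sfrp2*, *Sfrp4* and *Wif1*) were higher in reporter+ cells within both numbers, compared with 22.1% of all genes tested, and 2 (*Sfrp1* and *Dkk2*) were lower within both, compared with 24.8%. The median log2 fold change over the 7 members was -0.01, and over all 14415 genes it was -0.004. Regardless of sign, the median size was 0.59 for the members, 0.53 for the Wnt ligands as well as for the R-spondins, 0.26 for the other extracellular antagonists, 0.19 for the β-catenin targets, 0.14 for the receptors and 0.12 for all genes. No member had an adjusted p under 0.05 and none an unadjusted p under 0.05 in limma, and 0% of all genes passed the adjusted threshold (131 genes, or 0.909%, had an unadjusted p under 0.05). Among members the smallest unadjusted p was 0.0833, for *Sfrp4*. With the library number as a block, 29 genes (0.201%) passed the adjusted threshold, no member among them. In that limma fit 4 of 7 members (*Dkk2*, *Sfrp4*, *Sfrp1* and *Sfrp2*) had an unadjusted p under 0.05, compared with 6.33% of all genes. In the fit without a block, the intervals of *Sfrp2*, *Frzb* and *Dkk2* reached at least 2.56 log2 units on either side of 0. The error of that unblocked fit includes the differences between the library numbers. For *Sfrp1*, *Sfrp2*, *Frzb*, *Dkk2* and *Dkk3*, leaving out a single library, which unbalances the numbers, could turn the sign of the log2 fold change. As the cells were measured in bulk, fewer cells that express a gene and less RNA per cell cannot be told apart.

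Between the library numbers, 4 of 7 members (*Sfrp1*, *Sfrp2*, *Frzb* and *Dkk2*) were higher in both libraries 3# than in both libraries 2#, compared with 36.4% of all genes, and *Dkk3* was lower in both, compared with 28.8%. The numbers are not groups of the study, so this is a description without a test. *Dkk2* was 8.06-fold higher in libraries 3# on average, 10.0-fold in reporter+ and 6.50-fold in reporter- cells. For *Sfrp2* the mean difference was 7.51-fold, with 7.75-fold and 7.27-fold in the populations. *Frzb* was 11.1-fold higher in 3# in reporter+ cells and 2.70-fold higher in reporter- cells. *Sfrp1* was 2.59-fold higher in 3# and *Dkk3* 2.64-fold lower. *Sfrp4* and *Wif1* overlapped between the numbers, with mean differences of 0.38 and -0.43 on the log2 scale.

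The size of the difference between numbers was at percentile 98.8 of all genes for *Dkk2*, 98.6 for *Sfrp2*, 97.6 for *Frzb*, 91.2 for *Dkk3* and 90.8 for *Sfrp1*. Its median was 1.40 over the members, 1.02 over the Wnt ligands and 0.83 over the other antagonists. It was 0.62 over the receptors as over the β-catenin targets, 0.27 over the R-spondins and 0.31 over all genes. Over the osteocyte, tendon and chondrocyte markers, with 4 genes tested in each list, it was 2.02, 1.95 and 1.93. It was 1.47 over the smooth muscle and pericyte markers and 0.73 over the osteoblast markers. Over the endothelial, macrophage and stromal fibroblast markers it was 0.65, 0.59 and 0.48. The osteocyte genes included *Dmp1* and *Fgf23*, whose lowest values were -5.43 in reporter- library 2# and -6.90 in reporter+ library 2#.

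**Figure D3:**
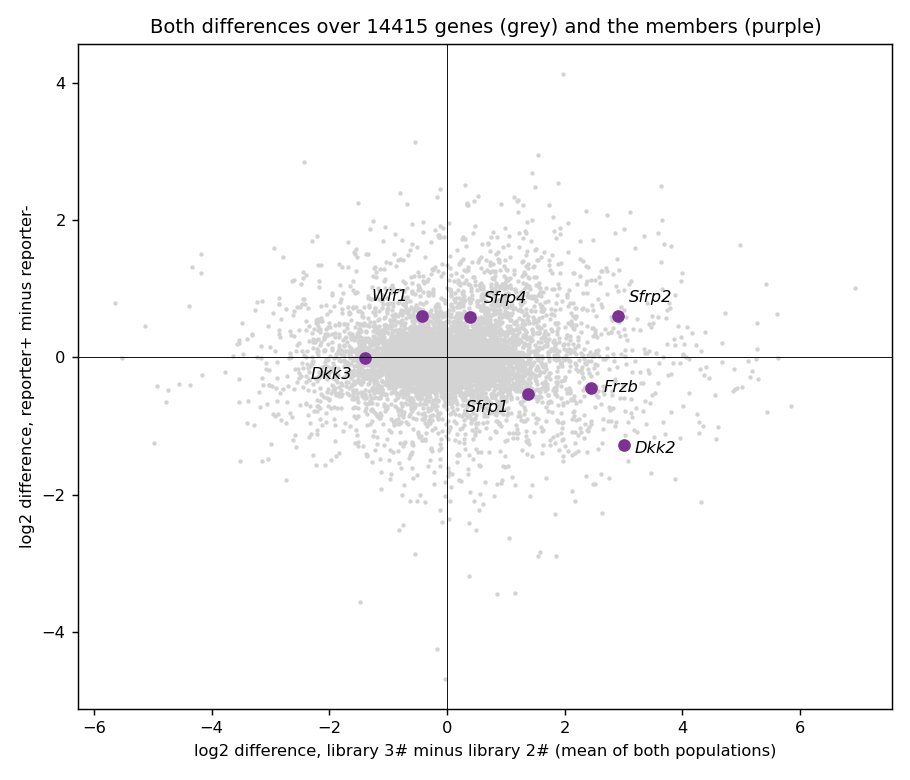
Difference in log2 value between libraries 3# and 2#, averaged over both populations (x axis), against the difference between reporter+ and reporter- cells (y axis) for 14415 genes (grey) and the 7 members (purple). *Sfrp2*, *Frzb* and *Dkk2* lie far to the right at 2.45 to 3.01, while no member lies more than 1.28 from 0 on the y axis.

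*Sost* (chromosome 11, 101962458 to 101967015) was blank in both reporter+ libraries and in reporter- library 2#, and had a log2 value of -6.55 in reporter- library 3#, at percentile 3.62 of the genes listed there. With 1 value no comparison was made. Of the osteocyte markers, *Mepe* was blank in all 4 libraries, and *Dmp1* had values of -4.86 and -2.51 in reporter+ and of -5.43 and -1.19 in reporter- libraries. The other osteocyte markers had their highest value in different libraries, *Phex* in reporter- 3# (-1.02), *Fgf23* in reporter+ 3# (-0.952) and *Pdpn*, which other stromal cells also express, in reporter- 2# (5.90). *Dkk1* (chromosome 19, 30545863 to 30549665) and *Sfrp5* (chromosome 19, 42197971 to 42202252) were blank throughout. A blank is not shown to mean absence, since the depth of the libraries is unknown.

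Markers of other cells differed between the populations, although the sort had removed cells positive for CD31 (endothelial), CD45 (blood lineage) and Ter119 (erythroid). All 8 macrophage markers were higher in reporter+ cells within both numbers, and the log2 of their summed level was 7.86 and 8.08 in reporter+ and 6.49 and 7.44 in reporter- libraries, with none blank. The 5 of 6 endothelial markers with 4 values were lower in reporter+ cells within both numbers, with summed levels of 0.52 and -1.65 against 1.53 and 0.91, and *Tie1* was blank in 1 library. In reporter+ library 2# this sum came mostly from *Erg* (log2 fold change -0.40). *Pecam1*, *Cdh5* and *Emcn* had log2 fold changes of -3.19, -4.26 and -3.44, but at low levels. Their means were -4.74, -5.58 and -5.03 in reporter+ and -1.55, -1.32 and -1.59 in reporter- libraries. Of 6 smooth muscle and pericyte markers, 5 were lower within both numbers, with summed levels of 4.00 and 4.76 against 5.13 and 5.38. *Rgs5*, the remaining one, had a log2 fold change of 0.08. Of 5 osteoblast markers with 4 values, *Alpl* (log2 fold change 0.80) and *Ibsp* (1.35) were higher and *Bglap2* (-1.07) lower in reporter+ cells within both numbers, while *Runx2* (0.01) and *Sp7* (0.09) had opposite signs in the numbers. *Acta1*, the 1 skeletal muscle marker with 4 values, had -2.01, with both reporter+ libraries lower. Of the chondrocyte markers, *Comp* (0.74) was higher and *Col2a1* (-1.51) and *Sox9* (-0.24) lower in reporter+ cells within both numbers. Of the tendon markers, *Thbs4* (0.68) was higher and *Scx* (-0.72) lower within both. *Acan*, *Mkx* and *Tnmd* had opposite signs in the numbers. Between the numbers, 3 of 4 tendon markers were lower in both libraries 3# than in both libraries 2#, with summed levels of 6.13 and 5.26 in 2# and of 3.99 and 3.76 in 3# that came mostly from *Thbs4*, while *Tnmd* had a mean difference of 2.36. Of 4 chondrocyte markers with 4 values, 3 were lower in both libraries 3#, with a median difference of -1.93 and with *Acan* at -3.54 and *Col2a1* at -3.14. In the opposite direction, 4 of 6 smooth muscle and pericyte markers and 3 of 4 osteocyte markers were higher in both libraries 3#, and 1 of each list was lower in both. The 10 stromal fibroblast markers all had 4 values, with *Col1a1* at 7.44 to 7.85. Of these 10, 2 were higher and 6 lower in reporter+ cells within both numbers, and 3 were higher and 5 lower in both libraries 3# than in both libraries 2#. The part of these cells in the members' differences was not tested.

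The other genes of the pathway were taken as lists. None of them had an adjusted p under 0.05 in the limma fit without a block, and 0% of all genes did. Passing genes in the blocked fit were not counted for these lists. Of 14 other antagonists, 8 had 4 values, with 2 higher and 2 lower in reporter+ cells within both numbers. The median log2 fold change was 0.02. This list included the Kremen and Shisa genes and was not limited to secreted proteins. *Draxin*, a secreted protein that binds LRP6, was separate between the populations, with 3.12 and 2.09 in reporter+ against 1.96 and 1.13 in reporter- libraries (log2 fold change 1.06, SE 0.47). *Grem1*, better known as an antagonist of BMP, had a log2 fold change of -0.77 (SE 0.41) and was lower within each number, with differences of -1.05 and -0.49. *Igfbp4* had 0.33 (SE 0.63) and *Apcdd1* 0.01 (SE 0.49). The Dickkopf relatives *Dkk4* and *Dkkl1* had no value and a value in 2 libraries.

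Of the 19 Wnt ligands, 12 had 4 values, with 4 higher and 4 lower in reporter+ cells within both numbers and a median log2 fold change of -0.02. *Wnt16*, a ligand made by osteoblasts and needed for cortical bone, had values of 1.95 and 2.42 in reporter+ and of 1.01 and 1.34 in reporter- libraries. Its log2 fold change of 1.01 (SE 0.27, unadjusted p = 0.0162 and adjusted p = 1 with limma) came with separate populations. *Wnt5a* had 0.07 (SE 0.68) and *Wnt5b* 0.38 (SE 0.47).

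All 20 receptors and co-receptors had 4 values, with 4 higher and 7 lower within both numbers and a median of -0.06. *Ror1* had a log2 fold change of 0.45 (SE 0.44), *Fzd8* 0.33 (SE 0.15), *Fzd7* -0.23 (SE 0.33) and *Lrp5*, the co-receptor bound by Dickkopf proteins and sclerostin, -0.19 (SE 0.16). *Lrp6* and *Kremen1*, the second a receptor for DKK1 and DKK2, were chosen after their values were seen and had 0.10 and 0.02. Of the 4 R-spondins, which enhance Wnt signaling, 3 had 4 values, with 2 higher and 1 lower within both numbers and a median of 0.37. *Rspo3* had a log2 fold change of 0.53 (SE 0.21) with separate populations, and *Rspo2* of -0.85 (SE 0.85).

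Of 15 target genes of β-catenin, 13 had 4 values, with 1 higher and 4 lower in reporter+ cells within both numbers. The median log2 fold change was 0.01. These 15 include the member *Dkk1*, which had no value. *Lgr5* is also counted among the receptors and *Apcdd1* among the antagonists above. *Ccnd1*, which drives the cell cycle and has many other inputs, had values of 4.95 and 4.72 in reporter+ and of 6.03 and 5.43 in reporter- libraries, a log2 fold change of -0.90 (SE 0.25, unadjusted p = 0.0203 and adjusted p = 1 with limma). *Notum*, an enzyme that inactivates Wnt proteins and is also among the antagonists above, had 0.19 (SE 0.25), and *Wisp1* 0.06 (SE 0.36). *Axin2*, a direct feedback target of the pathway chosen after its values were seen, had values of -2.26 and -0.995 in reporter+ and of -1.94 and -0.944 in reporter- libraries, and differed more between the numbers (1.13) than between the populations (-0.19).

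**Figure D4:**
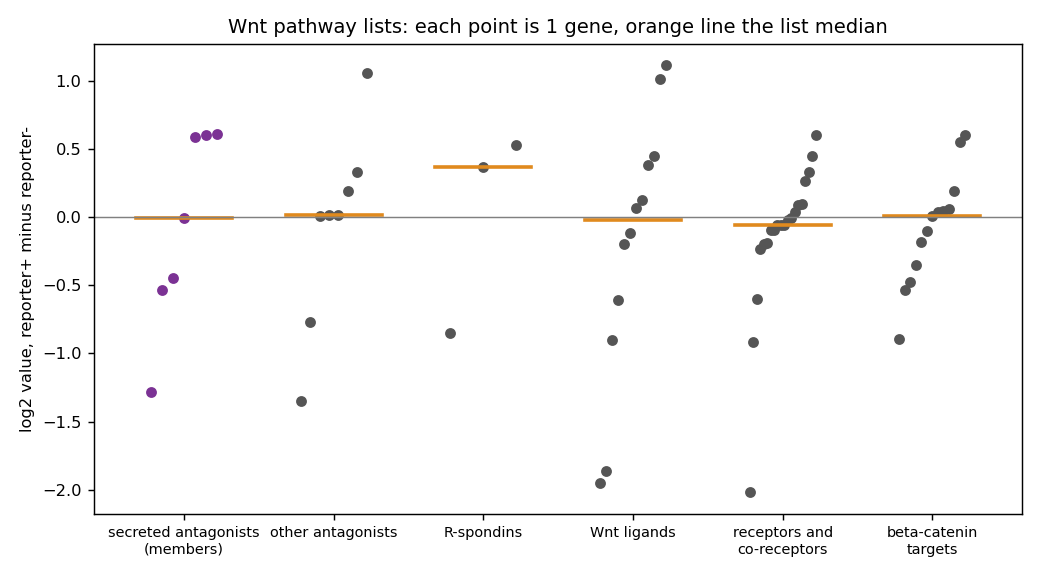
Difference in log2 value between reporter+ and reporter- cells (y axis) for the members (purple) and the genes of 5 pathway lists (grey) with 4 values; each point is 1 gene and the orange lines are list medians. The medians of the members, the other antagonists, the ligands, the receptors and the β-catenin targets lie between -0.06 and 0.02, that of the 3 R-spondins lies at 0.37, and single genes spread to both sides.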

How the data were processed

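The authors made 4 stranded libraries from total RNA and sequenced them from both ends. The processing notes name bcl2fastq 2.17.1.14, Partek 7.0 and GRCm38.p6 without giving their role, and the aligner, counting, annotation and filters are not given in the sources used here. The log2 values deposited by the authors are quantile normalized, with quartiles equal between libraries to within rounding, and cells are blank where no value is listed. No counts were used here, and the depth and the counting error are unknown.

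The sample labels number the replicates 1 and 2 and the table numbers them 2# and 3#, so libraries were assigned to a population only. The log2 fold change is the mean of reporter+ minus the mean of reporter- libraries. The 14415 genes with 4 values were fitted together in limma 3.58.1 (R 4.3.3, lmFit, eBayes with a variance trend, two-sided, no block). Benjamini-Hochberg adjustment was over all of them, with a threshold of 0.05. With 2 libraries against 2, an exact permutation test of 1 gene cannot give a p below 0.333 and was not used. The populations do not overlap for a gene when both values of one lie above both of the other. Positions and exonic lengths are from GENCODE M21 (GRCm38), and promoters from RefSeq (GRCm38.p6), which held 7 of the 10 members. Summaries were made with Python 3.11.15, pandas 2.3.3 and numpy 2.4.6.

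The members and gene lists were chosen with earlier results of these data known. All members are named, and of each pathway list the 2 highest and 2 lowest log2 fold changes where the gene's mean over the libraries reached 0. Alternatives were pseudocounts of 1 and 0.1, a filter on low values, blanks set to the lowest value, no variance trend, the number as a replicate block, 2 other centrings (the library median, and 12 housekeeping genes), and leaving out each library.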

Additional observations from a re-analysis of the deposited data

Results flagged for a closer look

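For *Frzb* and *Dkk3*, reporter+ and reporter- cells had opposite differences within the 2 library numbers, each number holding 1 library of each population, and whether the differences themselves differ was not tested because no replicate is left. For *Frzb*, reporter+ minus reporter- was -1.47 in 2# and 0.57 in 3#, a gap of 2.04 on the log2 scale. For *Dkk3* it was 0.16 in 2# and -0.17 in 3#, a gap of -0.32.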

How the results depend on the processing

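Libraries with the same number deviated together from their population means (correlation over genes 0.681). Neither the labels nor the methods state that the number marks a shared preparation. With the number as a replicate block, 29 of 14415 genes had an adjusted p under 0.05 in limma, compared with 0 without it, and 0 when the block was fitted without a variance trend (unadjusted p under 0.05 for 913, 131 and 941 genes). No member was among them in either fit. In the blocked fit the SE was 0.20 for *Dkk2* and 0.16 for *Sfrp2*, compared with 1.44 and 1.39 without the block, and the adjusted p was 0.0585 for *Dkk2*, 0.272 for *Sfrp4*, 0.298 for *Sfrp1* and 0.308 for *Sfrp2*, and 4 members had an unadjusted p under 0.05. Without the trend the adjusted p was 0.474 for *Dkk2*, and 3 members had an unadjusted p under 0.05 (*Dkk2*, *Sfrp2* and *Wif1*).

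All 62 values of the 7 members under the 9 alternatives that keep every library had the same direction and side of the threshold, but not the same size. With a pseudocount of 1 the log2 fold change was 0.13 for *Wif1*, -0.08 for *Frzb* and -0.81 for *Dkk2*. Under the filter at a mean log2 value of 0, *Wif1* was not tested, which left 1 member without overlap. Leaving out 1 library unbalances the numbers, and the lone library is assumed to vary like the others. This turned 10 of 28 member values. Without reporter+ library 2# the log2 fold change was 1.29 for *Frzb*, 0.38 for *Dkk2* and 0.26 for *Sfrp1*, and without reporter- library 3# it was 0.27, 0.067 and 0.044. Without reporter+ library 3# it was -0.87 for *Sfrp2* and 0.77 for *Dkk3*, and without reporter- library 2# it was -0.83 and 0.61. The full ranges were -2.19 to 1.29 for *Frzb*, -0.87 to 2.08 for *Sfrp2*, -2.94 to 0.38 for *Dkk2*, -0.79 to 0.77 for *Dkk3* and -1.33 to 0.26 for *Sfrp1*. The range was 0.27 to 0.91 for *Sfrp4* and 0.38 to 0.84 for *Wif1*, which could not turn because their populations do not overlap. The count of members without overlap ranged from 2 to 4 higher and from 0 to 3 lower in reporter+ cells. With 1 library against 2, this held for 25.7% to 30.6% and 25.8% to 32.5% of all genes. No member had an adjusted p under 0.05 in any setting. Depth is unknown, so that blank and low values, such as those of *Sost*, have no stated error.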
